A study of Mus musculus with 2 samples.

Results

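Transcripts of 6 genes of the Notch pathway were followed in EpA cells of the mouse spinal cord, which belong to the ependymal cells around its central canal. The genes were chosen by name: the receptors Notch1 and Notch2, the ligands Dll1 and Jag1, and the target genes Hes1 and Hes5. All 6 were present in the deposited table of EpA cells, which lists 17189 genes. The samples were 1 library of injured cord, taken on day 3 after the dorsal funiculus had been incised, and 1 library of uninjured cord. Both came from adult C57BL/6J mice of at least 12 weeks that carried Troy-CreERT2 +/- and Rosa26-tdTomato, and tdTomato+ cells were sorted from 5 mm segments at the lesion or at the same level of the intact cord. The reporter marks the cells in which the Troy driver was active and is therefore shared by both conditions, and the number of animals behind each library is not known here. With 1 library per condition there was no replicate check, no test between conditions was made, and the ranges in brackets are exact 95% intervals that cover counting error alone.

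Notch signalling passes between touching cells. A ligand such as Delta-like 1 (Dll1) or Jagged 1 (Jag1) on one cell binds a Notch receptor on its neighbour, proteases then cut the receptor, and its inner part enters the nucleus. There it joins the DNA-binding protein RBPJ and the Mastermind coactivators and turns on targets, among them the Hes genes, whose protein products repress transcription, including that of neuronal differentiation genes. In the nervous system the pathway is known for keeping progenitors undifferentiated, and Hes1 also responds to other signals.

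In sums over all EpA cells, the target Hes1 was 2.28-fold higher and the ligand Dll1 was 3.33-fold lower in the injured library. The receptor Notch1 was 1.91-fold higher, just short of the 2-fold mark, and Notch2 and Jag1 were within 1.22-fold of the uninjured library. Hes5 was nearly absent from both libraries. The higher Hes1 lay in the dividing cells and in the cells with few cilium transcripts, whereas injured cells that kept their cilium transcripts stood at 0.869 of the level in uninjured cells that kept them.

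The deposited EpA table held 1004 injured and 555 uninjured cells, with 25296289 and 7689179 unique molecular identifiers (UMIs, each standing for 1 captured RNA molecule). The median cell had 20158.5 UMIs in the injured and 11387 UMIs in the uninjured library, and 2 barcode sequences were shared between the EpA cells of both libraries. The 8 ependymal markers were all above 100 CPM (UMIs per 1000000) in both libraries, with summed levels of 4306 CPM in injured and 14335 CPM in uninjured EpA cells. Markers of other cell types were low for the vessel lining (17.7 CPM in injured and 18.6 CPM in uninjured EpA cells over 10 genes) and for microglia (43.8 CPM in injured and 49.0 CPM in uninjured cells over 10 genes). They were higher in injured cells for fibroblasts (156 CPM, against 33.7 CPM in uninjured cells over 9 genes, with Lum and Dpt at 0 in both libraries), mural cells (130 CPM, against 28.6 CPM in uninjured cells over 8 genes) and neurons (655 CPM, against 158 CPM in uninjured cells over the 8 of 9 genes listed). The fibroblast, mural and neuron lists each had 1 gene at 100 CPM or more in injured cells. Astrocyte markers summed to 799 CPM in injured and 684 CPM in uninjured EpA cells over 8 genes, with 3 at 100 CPM or more in each library. Markers of oligodendrocyte precursors summed to 31.5 CPM in injured and 1.17 CPM in uninjured cells over the 6 of 7 genes listed. Those of oligodendrocytes summed to 131 CPM in injured and 151 CPM in uninjured cells. The part of these markers in the results was not tested.

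The promoter sequences of a target and a ligand are printed with matches to motifs that proteins of the pathway are known to bind. The stretch around the Hes5 start site (GRCm38.p6, chr4:154960673-154960972, plus strand, RefSeq) is printed because it holds both matches to the RBPJ motif GTGGGAA found in the promoters searched, those of the members other than Hes1, whose promoter was not analysed here. Capitals mark the core letters TGGGAA or their reverse complement. The Dll1 stretch (chr17:15375774-15376073, minus strand, 1 of 2 RefSeq starts) is printed because Dll1 was the lower member, and capitals mark a match to CACGNG, a motif that Hes proteins are known to bind.
Hes5: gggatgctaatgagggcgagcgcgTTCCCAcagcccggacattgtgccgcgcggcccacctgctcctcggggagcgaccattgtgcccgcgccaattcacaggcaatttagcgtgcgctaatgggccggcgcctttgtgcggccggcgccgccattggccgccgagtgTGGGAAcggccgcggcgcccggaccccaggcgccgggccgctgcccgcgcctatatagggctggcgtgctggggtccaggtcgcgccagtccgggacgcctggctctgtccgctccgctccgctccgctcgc
Dll1: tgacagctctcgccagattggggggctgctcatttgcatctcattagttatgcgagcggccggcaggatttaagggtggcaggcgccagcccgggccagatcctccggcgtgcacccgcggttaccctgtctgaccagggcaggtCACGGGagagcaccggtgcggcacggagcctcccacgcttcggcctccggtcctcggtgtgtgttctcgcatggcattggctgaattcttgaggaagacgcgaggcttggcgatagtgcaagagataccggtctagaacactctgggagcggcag
Each stretch runs from 250 bases before to 50 bases after the start site. Of 32851 promoters of this length, 6.38% held GTGGGAA on either strand, 25.6% held its core TGGGAA, which lies inside it, and 27.5% held CACGNG. The Hes5 promoter had 2 matches to the longer motif, 1 on each strand, and the promoters listed for Notch1, Notch2, Dll1 and Jag1 had none. CACGNG had 1 match each in the Notch2 promoter and in both Dll1 promoters, 2 in the Jag1 promoter and none in those of Notch1 and Hes5. Another motif searched, CACNAG (the N box), was held by 42.5% of the 32851 promoters. It had 3 matches in the Notch1 promoter, 1 in that of Notch2 and 1 in the Dll1 promoter not printed. The printed Dll1 promoter and those of Jag1 and Hes5 had none. These letter matches are descriptions and are not measured binding sites.

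Genes were called by size alone, with a ratio of at least 2-fold and at least 10 CPM in one or both libraries. By this rule 1 of the 6 members was higher in injured cells (Hes1), beside 11.4% of all 9418 genes at that level, and 1 was lower (Dll1), beside 11.4% of them. At 50 CPM or more, Hes1 was again the member called higher, beside 10.8% of genes, and none was lower, beside 13.8%. With no minimum level Hes5 joined Hes1 as higher, beside 19.7%, and Dll1 was lower, beside 16.4%. With so few members, these counts are not set apart from the background shares. The members' levels in both libraries are plotted with their intervals.

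**Figure D1:**
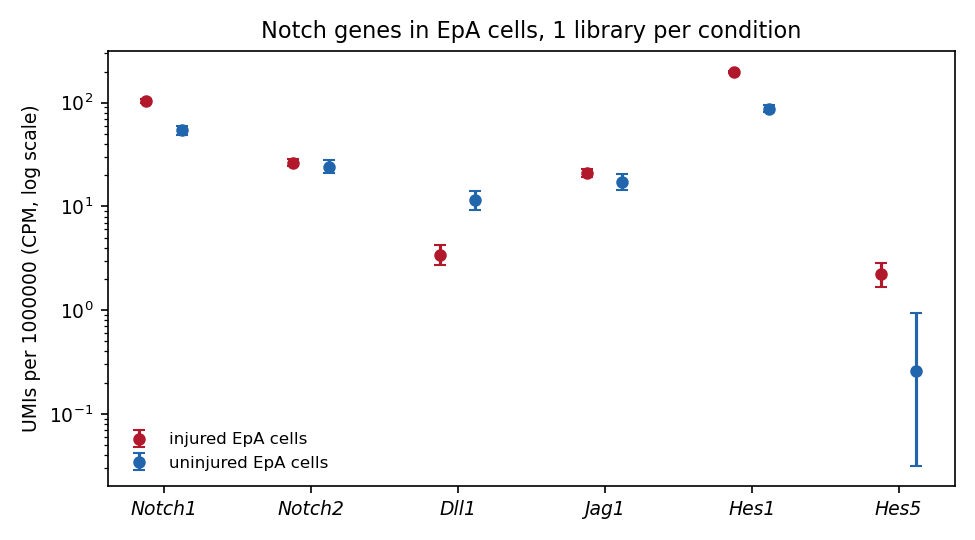
Level of each gene in UMIs per 1000000 (CPM, log scale) summed over 1004 injured (red, left) and 555 uninjured (blue, right) EpA cells, with exact 95% Poisson intervals. Hes1 and Notch1 stand higher and Dll1 lower in the injured library, and the interval of uninjured Hes5 rests on 2 UMIs.

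Notch1 (chromosome 2, 26457903 to 26516663, minus strand, GRCm38) encodes a receptor found on neural progenitors and on many other cells. It stood at 104 CPM (99.9 to 108; 2627 UMIs) in injured and 54.4 CPM (49.3 to 59.8; 418 UMIs) in uninjured EpA cells. The ratio was 1.91 (1.72 to 2.12), so the counting interval spans the 2-fold mark. With every cell read at the same depth of 2000 UMIs, 14.2% of injured and 9.14% of uninjured cells held a Notch1 UMI. Without that thinning the shares were 72.0% of injured and 45.6% of uninjured cells, at unequal depth. In fibroblast-like cells, outside the EpA set, 1 of 27 injured and 0 of 11 uninjured cells held one at 2000 UMIs, so few cells that a difference from EpA cells is not resolved.

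Notch2 (chromosome 3, 98013527 to 98150361, plus strand) encodes a second receptor of the family. Its level was 26.4 CPM (24.4 to 28.5; 668 UMIs) in injured and 24.2 CPM (20.8 to 27.9; 186 UMIs) in uninjured EpA cells. The ratio of 1.09 has an interval that includes 1 (0.927 to 1.29). At 2000 UMIs, 5.14% of injured and 4.57% of uninjured cells held a UMI, and without thinning 39.5% of injured and 27.4% of uninjured cells did. The other receptors were scarce: Notch4, known from endothelium, had 63 UMIs in injured and 13 in uninjured EpA cells, and Notch3, known from mural cells and astrocytes, had 12 in injured and 0 in uninjured cells.

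Dll1 (chromosome 17, 15367354 to 15376872, minus strand) encodes a transmembrane ligand. It stood at 3.44 CPM (2.755 to 4.24; 87 UMIs) in injured and 11.4 CPM (9.18 to 14.1; 88 UMIs) in uninjured EpA cells. Nearly equal numbers of Dll1 UMIs thus stood in totals that differed. The level was 3.33-fold lower in the injured library (2.45 to 4.53). At 2000 UMIs per cell 1.01% of injured and 1.83% of uninjured cells held a UMI, 10 cells in each library, and the intervals overlap (0.484% to 1.85% in injured, 0.880% to 3.34% in uninjured cells). The log2 ratio was -1.73 in the sums and -0.86 at that depth, where Dll1 no longer passed the rule, and it was -0.87 in UMIs per cell without scaling. Without thinning 7.27% of injured and 12.8% of uninjured cells held a UMI. In microglia-like cells 0 of 26 injured and 0 of 32 uninjured cells held one at 2000 UMIs, at median depths of 21186.5 UMIs in injured and 7171.5 UMIs in uninjured cells before thinning. These counts allow up to 13.2% of injured and 10.9% of uninjured cells, so a difference from EpA cells is not resolved. Before thinning, 1 injured and 0 uninjured microglia-like cells held a Dll1 UMI. An RNA on the opposite strand of the Dll1 locus, A930024N18Rik, had 11 UMIs in injured and 4 in uninjured EpA cells.

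Jag1 (chromosome 2, 137081456 to 137116644, minus strand) encodes a ligand of the Jagged group. It stood at 21.1 CPM (19.4 to 23.0; 534 UMIs) in injured and 17.3 CPM (14.5 to 20.5; 133 UMIs) in uninjured EpA cells. The ratio was 1.22 (1.01 to 1.49). At 2000 UMIs the shares were 3.02% in injured and 2.38% in uninjured cells, and without thinning 24.0% in injured and 19.8% in uninjured cells. At 5000 UMIs the order was reversed, at 6.69% of injured (5.20% to 8.44%) and 8.72% of uninjured cells (6.48% to 11.4%). The intervals of the libraries overlap at 2000 and at 5000 UMIs. Jag1 was uneven among injured cells: the tenth of cells with the most Jag1 UMIs held 73.8% of them, against 59.4% in the uninjured library. Before thinning, the highest injured cell had 45 UMIs and the highest uninjured cell 3. Scaled to each cell's depth, the highest cell stood at 1209 CPM in the injured and 255 CPM in the uninjured library.

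Hes1 (chromosome 16, 30064384 to 30067796, plus strand) encodes a repressor of the basic helix-loop-helix type. It stood at 199 CPM (194 to 205; 5033 UMIs) in injured and 87.3 CPM (80.8 to 94.1; 671 UMIs) in uninjured EpA cells, a ratio of 2.28 (2.10 to 2.47). On the log2 scale that was 1.19, against 0.66 with every cell weighted alike, 0.89 at 2000 UMIs per cell and 0.86 without dividing cells, so 3 settings left Hes1 higher but under 2-fold. Hes1 was concentrated in part of the cells. Before thinning, the tenth of cells with the most Hes1 UMIs held 60.0% of them in the injured and 53.5% in the uninjured library. The cell with the most Hes1 had 80 of 88254 UMIs in the injured and 21 of 22188 UMIs in the uninjured library. Scaled to each cell's depth, the highest cell stood at 1508 CPM in the injured and 2519 CPM in the uninjured library. At 2000 UMIs per cell 20.5% of injured and 14.3% of uninjured cells held Hes1, and 2.12% of injured and 0.183% of uninjured cells held 3 or more UMIs of it. Without thinning the shares were 57.8% in injured and 44.7% in uninjured cells. Every class of sorted cells outside EpA also held Hes1, so no class served as a blank for it.

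Hes5 (chromosome 4, 154960923 to 154962371, plus strand) encodes a related repressor known as a Notch target in neural progenitors. It stood at 2.21 CPM (1.67 to 2.87; 56 UMIs) in injured and 0.260 CPM (0.0315 to 0.940; 2 UMIs) in uninjured EpA cells, both under the 10 CPM of the size rule. The ratio was 8.51 (2.25 to 72.0). Of the 56 injured UMIs, 19 lay in 1 cell, and 23 injured and 2 uninjured cells held any. At 2000 UMIs per cell 4 of 992 injured cells (0.403%) and 1 of 547 uninjured cells (0.183%) did, and without thinning the shares were 2.29% in injured and 0.360% in uninjured cells. Over all deposited barcodes the log2 ratio turned to -0.58. Uninjured barcodes outside the EpA set held 17 Hes5 UMIs among kept cells, all of them astrocyte-like, and 5 among barcodes that were not kept.

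Injured EpA cells were then split by genes outside the pathway. Dividing cells held at least 2 of 10 mitosis genes at 2000 UMIs, and the remaining cells were parted at the 5th percentile of the share of cilium transcripts in uninjured cells, which was 1.05% of UMIs. This gave 125 dividing cells, 418 cells with few cilium transcripts and 449 cells that kept them, beside 525 uninjured cells that kept them. The uninjured library also had 20 cells with few cilium transcripts and 2 dividing cells. The median depths were 51399 UMIs in dividing cells, 25473 in injured cells with few cilium transcripts and 11491 in injured cells that kept them, against 11391 in uninjured cells that kept them, so depth moved with the split, and its part in the levels was not tested.

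Hes1 was highest in the dividing cells. It stood at 318 CPM (305 to 332) in dividing cells, 199.97 CPM (192 to 208) in cells with few cilium transcripts and 75.5 CPM (69.0 to 82.5) in injured cells that kept them, against 86.9 CPM (80.3 to 93.8) in uninjured cells that kept them. Dividing cells were at 3.66-fold (3.35 to 4.01) and cells with few cilium transcripts at 2.30-fold (2.11 to 2.52) the uninjured level, and injured cells that kept these transcripts at 0.869 of it (0.771 to 0.979). Within the injured library alone, dividing cells were 1.59-fold (1.499 to 1.69) above cells with few cilium transcripts, and those were 2.65-fold (2.40 to 2.92) above cells that kept them. At 2000 UMIs per cell, 47.2% of dividing cells (38.2% to 56.3%), 20.3% of cells with few cilium transcripts (16.6% to 24.5%) and 13.1% of injured cells that kept them (10.2% to 16.6%) held Hes1, against 14.1% of uninjured cells (11.2% to 17.4%). The dividing cells stood apart in these shares, and the intervals of the other 3 sets overlapped. The 20 uninjured cells with few cilium transcripts had Hes1 at 61.5 CPM (35.1 to 99.8; 16 UMIs), 0.708 of the level in uninjured cells that kept them (0.402 to 1.16), and Notch1 at 80.7 CPM (49.9 to 123; 21 UMIs), 1.51 times that level (0.927 to 2.35). Both intervals include 1.

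**Figure D2:**
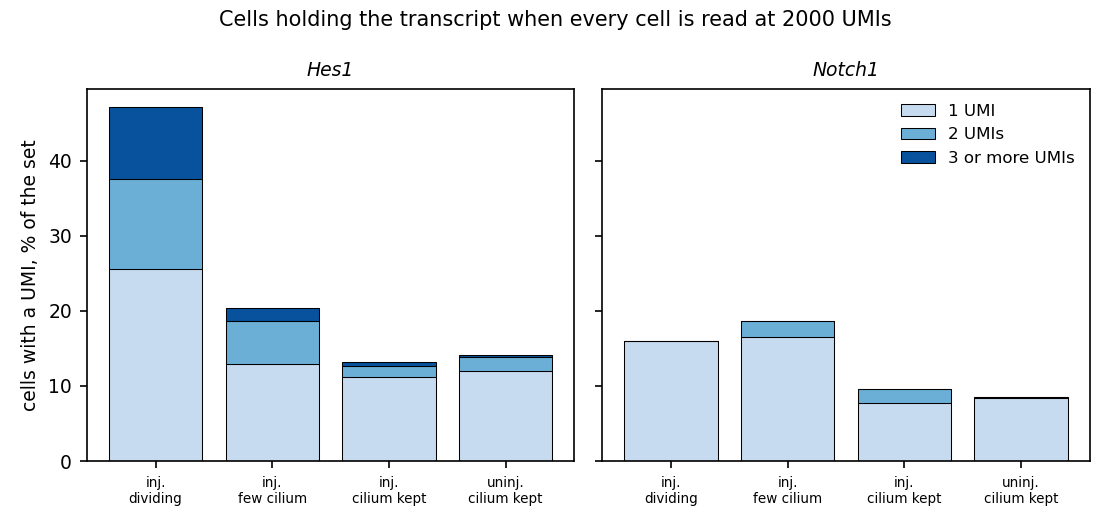
Share of cells (%) with 1, 2 or at least 3 UMIs of Hes1 and Notch1 when every cell is read at 2000 UMIs, in injured dividing cells, injured cells with few cilium transcripts, injured cells that kept them and uninjured cells that kept them. Hes1 was found in 47.2% of dividing cells, with 3 or more UMIs in 9.6%, while Notch1 stayed at 1 or 2 UMIs in all 4 sets.

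In sums, Notch1 followed another order. Its level was 109 CPM (102 to 118) in dividing cells, 121 CPM (115 to 128) in cells with few cilium transcripts and 65.7 CPM (59.6 to 72.2) in injured cells that kept them, against 53.3 CPM (48.1 to 58.8) in uninjured cells that kept them. Cells with few cilium transcripts were thus highest, and dividing cells were slightly below them with a ratio of 0.903 (0.825 to 0.987). Injured cells that kept cilium transcripts were 1.23-fold above uninjured ones (1.07 to 1.42). Notch2 was at 28.2 CPM in dividing cells, 29.0 CPM in cells with few cilium transcripts and 19.8 CPM in injured cells that kept them, against 23.8 CPM in uninjured cells.

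In sums, Dll1 was highest in the uninjured cells. It stood at 1.502 CPM (0.720 to 2.76) in dividing cells, 2.64 CPM (1.81 to 3.73) in cells with few cilium transcripts and 6.92 CPM (5.05 to 9.26) in injured cells that kept them, against 11.4 CPM (9.08 to 14.1) in uninjured cells. Injured cells that kept their cilium transcripts were also below uninjured ones, at 0.608 of their level (0.414 to 0.883). These levels rest on 10 UMIs in dividing cells, 32 in cells with few cilium transcripts and 45 in injured cells that kept them, against 84 in uninjured cells. The ratio of the dividing cells to those with few cilium transcripts has an interval that includes 1 (0.249 to 1.19). At 2000 UMIs per cell, Dll1 was found in 0 of 125 dividing cells (interval up to 2.91%), 5 of 418 cells with few cilium transcripts (1.20%) and 5 of 449 injured cells that kept them (1.11%), against 10 of 525 uninjured cells (1.90%). The order of the sums was thus not resolved at equal depth. Jag1 was at 26.9 CPM (23.1 to 31.1) in dividing cells, 21.7 CPM (19.2 to 24.5) in cells with few cilium transcripts and 13.99 CPM (11.3 to 17.2) in injured cells that kept them, against 17.5 CPM (14.6 to 20.8) in uninjured cells. Dividing cells had the highest Jag1 level, 1.92-fold (1.48 to 2.50) that of injured cells that kept cilium transcripts.

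Hes5 was found in 10 dividing cells and in 12 cells with few cilium transcripts, against 1 injured and 2 uninjured cells that kept them. It had 20 UMIs in the dividing cells, 35 in those with few cilium transcripts and 1 in injured cells that kept them, against 2 in uninjured cells. The cell with 19 UMIs lay among those with few cilium transcripts, and the rest of that set held 16.

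By the size rule, 19.2% of all genes were higher and 23.1% lower in dividing cells than in uninjured cells that kept cilium transcripts, and in cells with few cilium transcripts 12.7% were higher and 16% lower. In injured cells that kept cilium transcripts 1.26% were higher and 0.384% lower, and none of the 6 members was called there. Hes1 and Notch1 were called higher and Dll1 lower in both of the other sets.

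**Figure D3:**
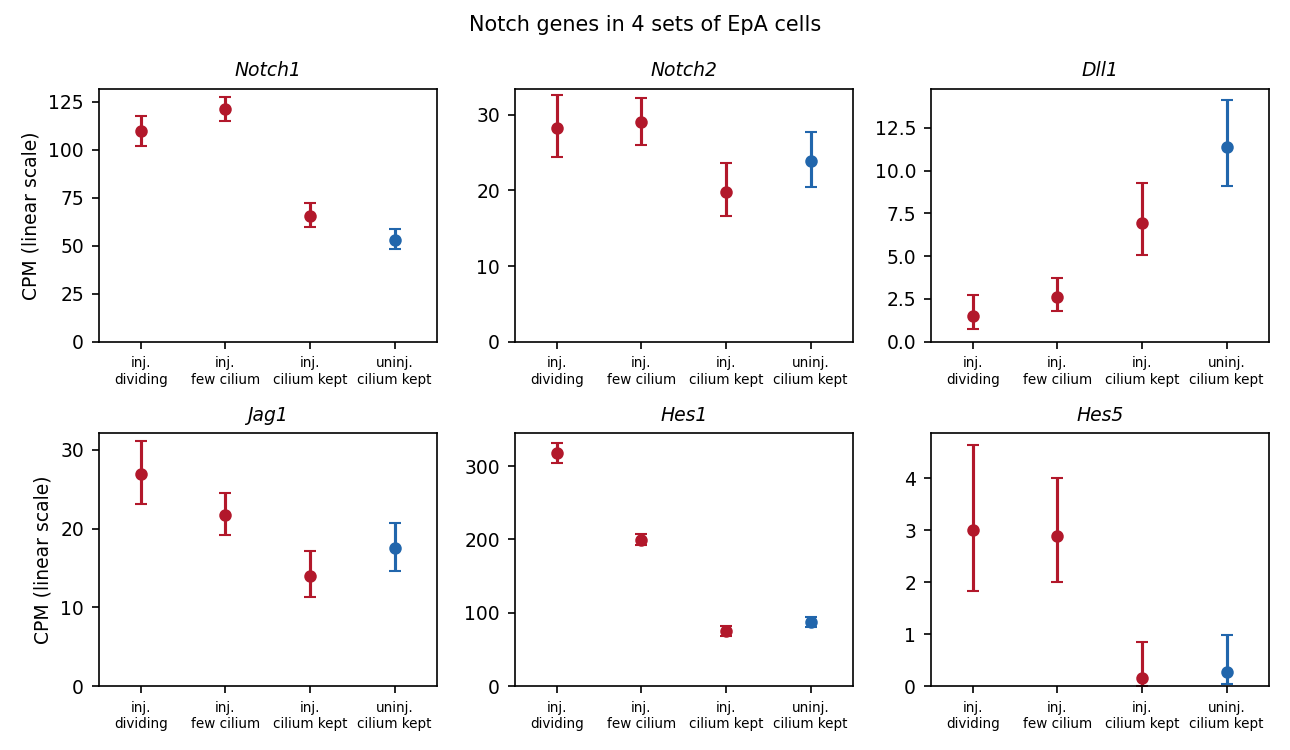
Level of each gene in CPM (linear scale, each panel with its own axis) in 3 sets of injured EpA cells (red) and in uninjured EpA cells that kept cilium transcripts (blue), with exact 95% Poisson intervals. Hes1 is highest in dividing cells, Notch1 in cells with few cilium transcripts, and Dll1 in uninjured cells.

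The EpA cells were also clustered without the Notch pathway genes, so that none of these could shape the clusters. Hes1 was highest, at 322 CPM (309 to 336), in a cluster with 118 injured EpA cells, of which 105 were among the dividing cells. Dll1 was at 1.05 CPM there (0.424 to 2.17; 7 UMIs). Against the other EpA cells these were led by genes of cell division, Ube2c, Hist1h2ap and Hist1h1b first. The cluster also took in 6 cells outside EpA, and 3 of these held 21861 UMIs of 7 neutrophil granule genes, among them S100a9, Elane and Mpo, that were picked after they appeared among its leading genes. The 118 injured EpA cells held 2 UMIs of them, and all EpA cells had 0.356 CPM in the injured and 9.49 CPM in the uninjured library. In the cells led by Crym and Tagln (225 injured cells) Hes1 was at 258 CPM and 39 of the 56 injured Hes5 UMIs were found. In those led by Gfap and C3, an intermediate filament gene of astrocytes and a complement gene (287 injured cells), Hes1 was at 87.6 CPM and Jag1 at 9.10 CPM. Notch1 was at 125 CPM in the Crym and Tagln cells and at 104 CPM in the Gfap and C3 cells, closer together than Hes1 was. Hes1 also varied between clusters that both libraries shared. In the cells led by Plet1 and the immediate early genes Fos and Btg2 it stood at 136 CPM (114 to 160; 78 cells) in the injured and 173 CPM (155 to 192; 125 cells) in the uninjured library. In the cells led by Pcp4 and the ependymal genes Ccdc153 and Tmem212 it stood at 50.1 CPM (43.0 to 58.0; 296 cells) in the injured and 56.5 CPM (50.5 to 63.0; 421 cells) in the uninjured library. In neither of these clusters was Hes1 higher in the injured library. Median depth of the injured cells was 54070 UMIs in the cluster led by division genes and 30319 UMIs in the Crym and Tagln cells. It was 18934 UMIs in the Gfap and C3 cells, 11440.5 UMIs in the Plet1 cells and 10278 UMIs in the Pcp4 cells. The part of depth in these levels was not tested.

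The pathway list held 64 genes, of which 44 averaged 5 CPM or more and counted as measured. In injured EpA cells 3 of them were at least 2-fold higher, beside 10.9% of all 10527 measured genes, and 4 were at least 2-fold lower, beside 11.3%. The median log2 ratio was -0.01 over the list and -0.03 over all measured genes. The 3 higher genes were Hes1, Hes6 and Numbl. Hes6, whose product is known to oppose Hes1, was at 19.5 CPM in injured and 5.07 CPM in uninjured cells, 3.85-fold higher (2.78 to 5.48). Numbl, an adaptor related to the Notch inhibitor Numb, was at 22.8 CPM in injured and 8.97 CPM in uninjured cells, 2.54-fold higher (1.98 to 3.31).

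The 4 lower genes were Dll1, Dner, Mib2 and Dtx1. Dner, a transmembrane protein described as a Notch ligand in the cerebellum, was at 135 CPM in injured and 289 CPM in uninjured cells, 2.13-fold lower (2.02 to 2.25). Mib2, a ubiquitin ligase of ligand uptake, was at 13.0 CPM in injured and 27.6 CPM in uninjured cells, 2.11-fold lower (1.77 to 2.52). Dtx1, a Deltex ubiquitin ligase, lay on the mark at 24.6 CPM in injured and 49.3 CPM in uninjured cells, 2.005-fold lower (1.76 to 2.28). Dner showed the order of Dll1 across the sets, at 72.2 CPM in dividing cells, 110 CPM in cells with few cilium transcripts and 248 CPM in injured cells that kept them, against 289 CPM in uninjured cells.

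None of the 9 measured protease genes, none of the 10 nuclear complex genes and none of the 5 measured glycosylation genes differed 2-fold. Rbpj, the DNA-binding partner, was at 79.0 CPM in injured and 87.5 CPM in uninjured cells. Among the proteases Ncstn was highest in ratio at 1.95 and Aph1b lowest at 0.511, both subunits of gamma-secretase. Of the 9 listed targets, Hes1, Bhlhe40 and Hey1 were measured, and Hey1 went the opposite way to Hes1 at 9.21 CPM in injured and 13.3 CPM in uninjured cells, a ratio of 0.694 (0.548 to 0.885). Nrarp, a feedback target, was scarce at 61 UMIs in injured and 4 in uninjured cells.

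**Figure D4:**
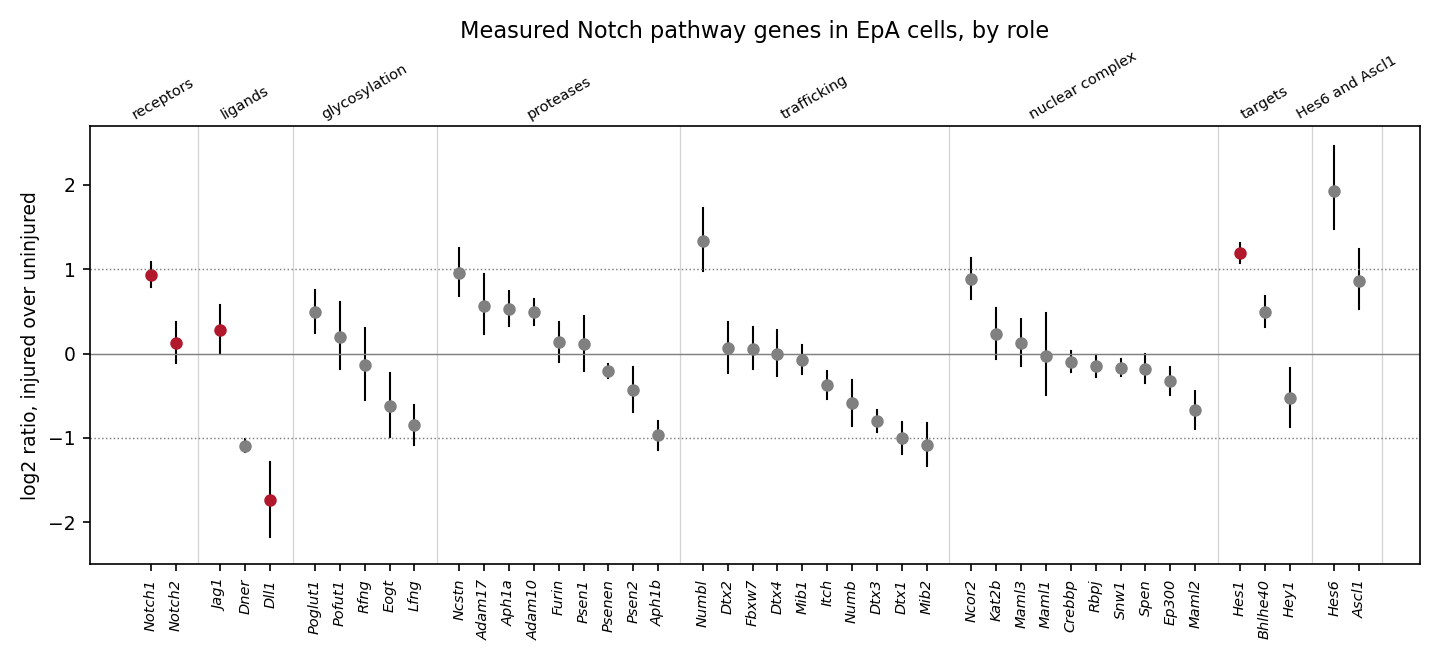
Log2 ratio of injured over uninjured EpA cells for the 44 measured genes of the pathway list, grouped by role, with exact 95% counting intervals. The members are red, dotted lines mark 2-fold, and 37 of the 44 genes lie between them.

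Sorted cells outside the EpA set, 224 injured and 156 uninjured, gave the levels of the same genes in other classes. In sums, uninjured endothelial-like cells held Dll1 at a higher level than EpA cells. In this class (105 injured, 51 uninjured cells) it stood at 4.26 CPM (19 UMIs) in injured and 50.7 CPM (26 UMIs) in uninjured cells, a ratio of 0.0842 (0.0440 to 0.158). Jag1 was at 22.4 CPM in injured and 48.7 CPM in uninjured cells, a ratio of 0.461 (0.295 to 0.745). By the size rule these 2 members were lower, beside 19% of genes in that class, and none was higher, beside 14.4%. Median depth was 28056 UMIs in injured and 8919 UMIs in uninjured cells of the class, and the ependymal markers summed to 615 CPM in injured and 2628 CPM in uninjured cells of it. Notch1 was at 97.2 CPM in injured and 117 CPM in uninjured endothelial-like cells, and Hes1 at 216 CPM in injured and 171 CPM in uninjured ones. At 2000 UMIs, 22.8% of injured and 26.7% of uninjured endothelial-like cells held Hes1, so the direction of its sums was not seen at equal depth. Dll1 was held by 2 of 101 injured (0.241% to 6.97%) and 3 of 45 uninjured cells (1.40% to 18.3%) at that depth. For Jag1 the counts were 4 of 101 injured (1.09% to 9.83%) and 3 of 45 uninjured cells (1.40% to 18.3%). The intervals overlap for each gene, so the lower Dll1 and Jag1 sums were not resolved at equal depth. The Dll1 interval of uninjured endothelial-like cells also overlaps that of uninjured EpA cells (0.880% to 3.34%).

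The injured endothelial-like cells also differed in other pathway genes. Dll4, a ligand known from sprouting vessels, was at 66.2 CPM in injured and 15.6 CPM in uninjured cells (ratio 4.25, 2.13 to 9.93). Nrarp was at 72.0 CPM in injured and 15.6 CPM in uninjured cells (4.62, 2.32 to 10.8). Lfng, a glycosyltransferase that modifies Notch, was at 13.0 CPM in injured and 158 CPM in uninjured cells, a ratio of 0.0825 (0.0578 to 0.117). A finer clustering of all kept cells was also made, and its endothelial-like clusters were not an exact split of this class. The first held 81 injured and 6 uninjured cells outside EpA, led by Plvap and Aplnr among others. The second held 35 injured and 46 uninjured cells, led by haemoglobin genes, Slco1a4 and Cldn5. In the second of these, Dll1 was at 12.4 CPM (6 UMIs) in injured and 49.2 CPM (25 UMIs) in uninjured cells, a ratio of 0.252 (0.0844 to 0.628). Dll4 was at 6.19 CPM in injured and 13.8 CPM in uninjured cells (0.449, 0.0750 to 1.97), and Nrarp was at 10.3 CPM in injured and 15.8 CPM in uninjured cells (0.655, 0.169 to 2.27). Lfng was at 64.0 CPM in injured and 159.5 CPM in uninjured cells (0.401, 0.256 to 0.614). Jag1 was at 18.6 CPM (9 UMIs) in injured and 49.2 CPM (25 UMIs) in uninjured cells, a ratio of 0.377 (0.155 to 0.836). Within this finer cluster Dll4 and Nrarp were thus not higher in the injured library. Lfng and Dll1 were lower there by less than in the endothelial-like class above. The Jag1 ratio was below the 0.461 of that class (0.295 to 0.745), with overlapping intervals.

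Other classes differed from EpA cells in their Notch genes. In microglia-like cells (30 injured, 38 uninjured) Hes1 was at 175 CPM in injured and 74.8 CPM in uninjured cells, 2.34-fold higher (1.44 to 4.01) in sums. At 2000 UMIs, 2 of 26 injured (7.69%, 0.946% to 25.1%) and 4 of 32 uninjured (12.5%, 3.51% to 29.0%) of these cells held Hes1. The intervals overlap, so the sums' direction was not seen at equal depth and no order was resolved. Median depth was 21186.5 UMIs in injured and 7171.5 UMIs in uninjured microglia-like cells. Notch1 was at 16.3 CPM in injured and 39.3 CPM in uninjured cells. Notch2 was at 21.7 CPM in injured and 47.2 CPM in uninjured microglia-like cells. The intervals of both receptor ratios, 0.413 for Notch1 (0.164 to 1.07) and 0.459 for Notch2 (0.204 to 1.06), include 1. Hes5 had no UMI in these cells, which allows up to 4.06 CPM in injured and 11.8 CPM in uninjured cells. By the size rule 14.1% of genes were higher and 29% lower in that class. In fibroblast-like cells (36 injured, 30 uninjured) Notch1 was at 13.0 CPM in injured cells and had no UMI in uninjured cells. Hes1 was at 122 CPM in injured and 292 CPM in uninjured fibroblast-like cells, Jag1 at 19.98 CPM in injured and 57.2 CPM in uninjured ones, and Notch2 at 18.2 CPM in injured and 103 CPM in uninjured ones, beside 12.4% of genes higher and 29.6% lower. Their median depth was 18693 UMIs in injured and 1131.5 UMIs in uninjured cells, and its part in these ratios was not tested. At 2000 UMIs, 5 of 27 injured (6.30% to 38.1%) and 1 of 11 uninjured (0.230% to 41.3%) fibroblast-like cells held Hes1. The intervals overlap, so no order of the libraries was resolved at equal depth. Jag1 was held by 2 of 27 injured and 1 of 11 uninjured fibroblast-like cells at that depth, with overlapping intervals.

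Uninjured EpA cells, at 54.4 CPM of Notch1 and 2 UMIs of Hes5, were below the astrocyte-like cells of the same library (30 cells) in both genes. Those cells had 166 CPM of Notch1 (118 to 228) and 72.6 CPM of Hes5 (42.3 to 116), with the Hes5 UMIs, 17 in all, in 4 cells. They also had 42.7 CPM of Notch3 and 303 CPM of Lfng. The 6 injured cells of the class were too few for a level.

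**Figure D5:**
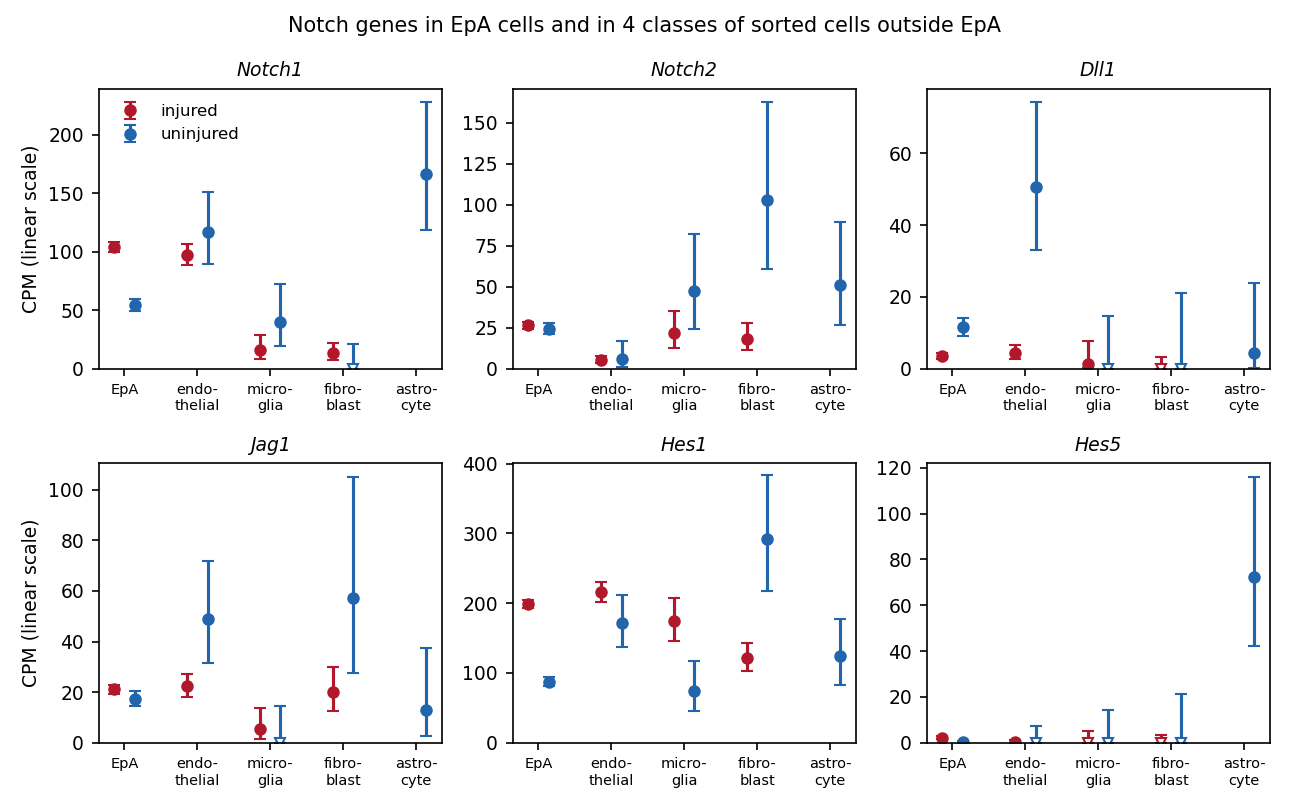
Level of each gene in CPM (linear scale, own axis per panel) in injured (red, left) and uninjured (blue, right) EpA cells and in 4 classes of sorted cells outside EpA, with exact 95% Poisson intervals. Open triangles mark classes with no UMI, and injured astrocyte-like cells are left out because there were 6 of them. In these sums Dll1 and Jag1 stand lower in injured than in uninjured endothelial-like cells, which was not resolved at equal depth, and Hes5 stands highest in uninjured astrocyte-like cells.

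Detection in the same cell was compared with the product of the single shares at 2000 UMIs. Of injured EpA cells, 2.72% held both Notch1 and Hes1 (1.80% to 3.94%), against a product of 2.91%. Of uninjured EpA cells, 2.38% held both (1.27% to 4.03%), against a product of 1.30%. Each product lies inside its interval. At this depth 10 of 992 injured cells (1.01%, 0.484% to 1.85%) held a receptor and a ligand UMI together. Among uninjured cells 0 of 547 did (interval up to 0.672%), and the intervals of the libraries overlap.

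Across 10 profiles (EpA and each class outside it with at least 20 cells, by library) the genes whose log2(CPM + 10) followed each member most closely were found among 7194 genes. They were Atrx for Notch1 (Pearson r 0.93), Tns3 for Notch2 (0.88), Samd12 for Dll1 (0.96), Tsc22d1 for Jag1 (0.95) and Mrpl3 for Hes1 (0.94). The next were Golga1 and Atrn for Notch1, Pik3ca and Exoc3 for Notch2, Polk and Pomc for Dll1, Pkd1 and Afap1 for Jag1, and Ptms and Ltbr for Hes1. The profiles share 2 libraries and some are shallow, so these values describe likeness only.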

How the data were processed

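Cells were sorted tdTomato+ cells of mouse spinal cord, and a single-cell 3' kit (10x Genomics) was used for the libraries, per the labels' protocols. The submitters' processing notes name Cell Ranger 3.0.1, Seurat and mm10, and the annotation and each tool's role are not stated there. The deposited tables hold raw UMI counts, which the authors did not normalise: values are whole and cells differ in total. EpA cells were those in the authors' EpA table, and its values were identical to those of the per-library tables. A gene missing from a library's table was taken as 0. Of 1566 injured and 876 uninjured deposited barcodes, 1228 and 711 were in the authors' table of kept cells, and 18 barcode sequences occurred in both libraries.

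UMIs were summed over cells and scaled to 1000000 (CPM). Log2 ratios of sums used 0.5 added counts, and a class at 0 UMIs was given the limit of 3 counts. Intervals are exact: Poisson for levels, conditional binomial for ratios, Clopper-Pearson for shares. Cells were thinned to 2000 UMIs for shares, which left out 12 injured and 8 uninjured EpA cells. Kept cells were clustered jointly without the pathway genes on 2000 variable genes, 20 components and 15 neighbours at resolution 0.5 (scanpy 1.11.5, leidenalg 0.10.2). A class was named from at least 3 markers above 100 CPM with markers among its top 10 genes. Scrublet called 4 barcodes doublets in each library, which does not show that doublets were absent, and none was removed in the main results. Named genes were the members, the pathway genes at least 2-fold different and the 3 genes most like each member at 10 CPM or more. The other pathway genes with values, such as Notch3, Rbpj, Ncstn, Aph1b, Hey1, Nrarp, Dll4 and Lfng, were chosen after their values were seen. The members, lists and tests were chosen with earlier results of these data known. Alternatives covered the CPM floor, scaling (TMM of edgeR 4.0.16, no mitochondrial genes, none), cell weight, depth, cell filters, single cells, the cilium split and the clustering. The size rule was run on simulated counts that vary by counting error alone, which says nothing of differences between animals. Positions are from GENCODE for GRCm38, and promoters from RefSeq for GRCm38.p6.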

Additional observations from a re-analysis of the deposited data

Results flagged for a closer look

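In 3 cases the ratio in a class of cells outside EpA and the ratio in EpA cells lay on opposite sides of 1 with both counting intervals excluding 1. Jag1 had an injured over uninjured ratio of 0.461 in endothelial-like cells (22.4 CPM injured, 48.7 CPM uninjured) and of 0.349 in fibroblast-like cells (19.98 CPM injured, 57.2 CPM uninjured), against 1.22 in EpA cells. With cells read at 2000 UMIs, 4 of 101 injured and 3 of 45 uninjured endothelial-like cells held Jag1. Among fibroblast-like cells 2 of 27 injured and 1 of 11 uninjured cells did. The intervals of these shares overlap in each class, so neither Jag1 difference was resolved at equal depth. Hes1 had a ratio of 0.417 in fibroblast-like cells (122 CPM injured, 292 CPM uninjured), against 2.28 in EpA cells. At 2000 UMIs per cell 5 of 27 injured and 1 of 11 uninjured fibroblast-like cells held Hes1, with overlapping intervals, so this difference was not resolved either. Median depth was 18693 UMIs in injured and 1131.5 UMIs in uninjured cells of the class. Other ratios on opposite sides of 1, such as 0.177 for Notch2 in fibroblast-like cells against 1.09 in EpA cells, had at least one interval that included 1. With 1 library per condition these differences between classes were not tested.

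Deposited barcodes that the authors did not keep also held the members. Hes1 stood at 196 CPM (173 to 221) in 338 injured and 38.9 CPM (24.6 to 58.3) in 165 uninjured barcodes of this kind, with medians of 2350 UMIs in injured and 2272 UMIs in uninjured ones.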

How the results depend on the processing

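No paired analysis was possible because each condition had 1 library, and for the same reason no library could be left out. Over 10 alternatives the log2 ratio of injured over uninjured EpA cells ran from 0.70 to 1.80 for Notch1, 0.08 to 1.15 for Jag1 and 0.66 to 2.05 for Hes1, all above 0, and from -2.26 to -0.86 for Dll1, all below 0. Notch2 ran from -0.21 to 0.99. Hes5 ran from -0.58, over all deposited barcodes, to 3.73 and was 2.78 in the sums. Members called higher were 2 with no CPM floor, 2 with TMM scaling, 2 in cells with at least 1000 UMIs and under 10% mitochondrial UMIs, 3 in UMIs per cell without scaling, and 0 with every cell weighted alike, at 2000 UMIs per cell or without dividing cells, against 1 as reported. Members called lower were 0 at 50 CPM, without scaling and at 2000 UMIs, against 1. Of all genes, 1073 were higher and 1074 lower, against 402 and 511 at 50 CPM, 3309 and 2747 with no floor, 3828 and 158 without scaling, 615 and 354 with cells weighted alike, and 583 lower at 2000 UMIs. Without scaling the median gene moved to a log2 ratio of 0.84 and the pathway list to 0.85, and without mitochondrial genes the median gene moved to -0.11. List genes higher (3) were 5 with TMM, 15 without scaling, 6 in the filtered cells and 6 over all barcodes. List genes lower (4) were 0 without scaling, 0 at 2000 UMIs, 1 with cells weighted alike and 1 without dividing cells. Shares of cells were higher at 5000 than at 2000 UMIs for each member in each library except Hes5 in uninjured cells, found in 0 of 539 cells at 5000 and in 1 of 547 at 2000 UMIs. For Jag1 the injured share was above the uninjured share at 2000 UMIs and below it at 5000, with overlapping intervals at both depths. The cause of these shifts was not tested.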
